A study of Mus musculus with 6 samples.

Results

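Cholesterol and fatty acid synthesis is described here through 35 genes, in 4 polyA RNA libraries of mouse embryonic stem cells grown with or without doxycycline. The genes were taken by name: the 2 transcription factors of the pathway, 3 sterol-sensing regulators, 18 enzymes of sterol synthesis, 1 sterol transfer protein and 11 enzymes that make, desaturate or elongate fatty acids. All 35 were found among the 31310 genes with usable isoforms, through 275 isoforms. Of these genes, 34 were among the 13207 that reached the minimum for the test.

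The cells, TT-FHAgo2, are mouse embryonic stem cells of clonal origin, in which the dose of doxycycline sets how much Argonaute 2 (Ago2) is made. Ago2 is the protein that binds microRNAs and brings them to their target transcripts. The line was kept in 0.1 µg/mL doxycycline before both treatments. In the doxycycline condition cells received 2.5 µg/mL for 48 h, a dose that per the labels restores a wild-type amount of Ago2, and in the other condition the drug was withdrawn for 96 h (2 libraries each). The conditions therefore differ in the drug, in the hours of treatment and in Ago2, and these cannot be told apart. No label says that the libraries of a condition came from separate cultures. A p-value here sets the difference between conditions against the scatter of these libraries, pooled in part over all genes. That scatter may be technical. Spike-in libraries of the series, embryonic and mesenchymal, were not analysed here.

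In animal cells, sterol synthesis starts from acetyl-CoA, passes through mevalonate and farnesyl diphosphate to squalene, and from lanosterol to cholesterol. The same acetyl-CoA, released from citrate in the cytosol, is the substrate of fatty acid synthesis. Most of these genes are targets of the sterol regulatory element-binding proteins (SREBPs), membrane-bound transcription factors encoded by Srebf1 and Srebf2. When sterols are low, the escort protein Scap carries them from the endoplasmic reticulum to the Golgi, where they are cut free. When sterols are high, the Insig proteins hold Scap back. SREBPs act on promoters together with NF-Y, a factor that binds CCAAT boxes.

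Levels are in FPKM (mapped fragments, scaled to the length of the transcript and the size of the library), as the authors deposited them per isoform and as summed here per gene. Errors of levels are SD over n = 2 libraries. A log2 change is a difference on the log2(FPKM + 0.5) scale, doxycycline-free minus doxycycline, given with its SE from limma; it understates the change of genes at low levels. A gene is called when its p-value, adjusted by the Benjamini-Hochberg method over all 13207 genes, is under 0.05. The libraries of each condition carry the numbers 0 and 1, and their values are always given in that order.

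The isoforms used summed to between 0.449 M and 0.535 M FPKM (M, mega) per library. From the steps between low FPKM values, the totals behind the libraries numbered 1 were estimated at 46.5 M fragments with doxycycline and 46.7 M without, so that for a 2000 nt transcript 3 reads make 0.0355 and 0.0352 FPKM. The depth of the libraries numbered 0 is unknown, since only 33.9% and 34.3% of their low values were whole reads, within a tolerance of 0.1 read that gives 20% by chance. Every member tested lay far above these floors. Ago2, listed in the files under its older symbol Eif2c2, stood at 35.2 and 36.7 FPKM with doxycycline and at 28.7 and 28.8 FPKM without it. It fell by 0.32 ± 0.08 (limma adjusted p = 0.0287) and kept this call in 7 of 14 alternative analyses. Its adjusted p was 0.134 without the doxycycline library numbered 0, 0.205 without the one numbered 1, 0.0881 without the other condition's library numbered 0 and 0.0752 without its library numbered 1.

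Markers of embryonic stem cells were abundant in every library. The 10 markers summed to 4221 and 4712 FPKM with doxycycline and to 4402 and 4989 FPKM without it. Pou5f1 averaged 612 ± 51.8 and 552 ± 71.5 FPKM in the 2 conditions, and Sox2 averaged 215 ± 8.26 and 261 ± 19.6 FPKM, and neither was called. Nanog was called higher without doxycycline. Of the rest, named here after their values were seen, Fgf4 was called higher and Klf4, Utf1 and Zfp42 lower. Fibroblast feeder markers summed to at most 2.75 FPKM over 8 genes, with Col3a1 and Postn at 0, and 1 of them, Thy1, reached the minimum and was not called. Extraembryonic endoderm markers summed to between 1.82 and 2.50 FPKM over 9 genes, with Afp and Ttr at 0. Gata4, the single one of these to reach the minimum, was called higher at 0.498 and 0.814 FPKM with doxycycline and 1.27 and 1.39 FPKM without. The part of the shifts among stem cell markers in the results below was not tested.

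Most of the pathway stood at a higher level after doxycycline was withdrawn, and the desaturases moved most. The summed level of the 35 genes was 877 ± 3.91 FPKM with doxycycline and 1122 ± 42.9 FPKM without it. Of the 34 genes tested, 14 rose, 1 fell (Pmvk) and 19 were not called. Over all genes tested 41.0% were called, 19.7% as higher and 21.3% as lower. Of the calls over all genes 48.1% were higher, a share of 67.7% on the TPM scale (each library set to the same total) and of 39.9% once both conditions were given 1 median. The median log2 change of the 34 genes was 0.24, beside -0.06 over all 13207 genes, and 28 of the 34 changes were above 0. The smallest of the 28, 0.01 for Acaca, stood at percentile 55.8 of the changes of all genes tested. Both libraries without doxycycline lay above both with it for 20 of the 34, beside 33.1% of all genes, and below both for 3, beside 40.0% of all genes, so that groups were apart for 73.1% of all genes. In bulk RNA, fewer cells with a transcript and less of it per cell cannot be told apart.

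**Figure D1:**
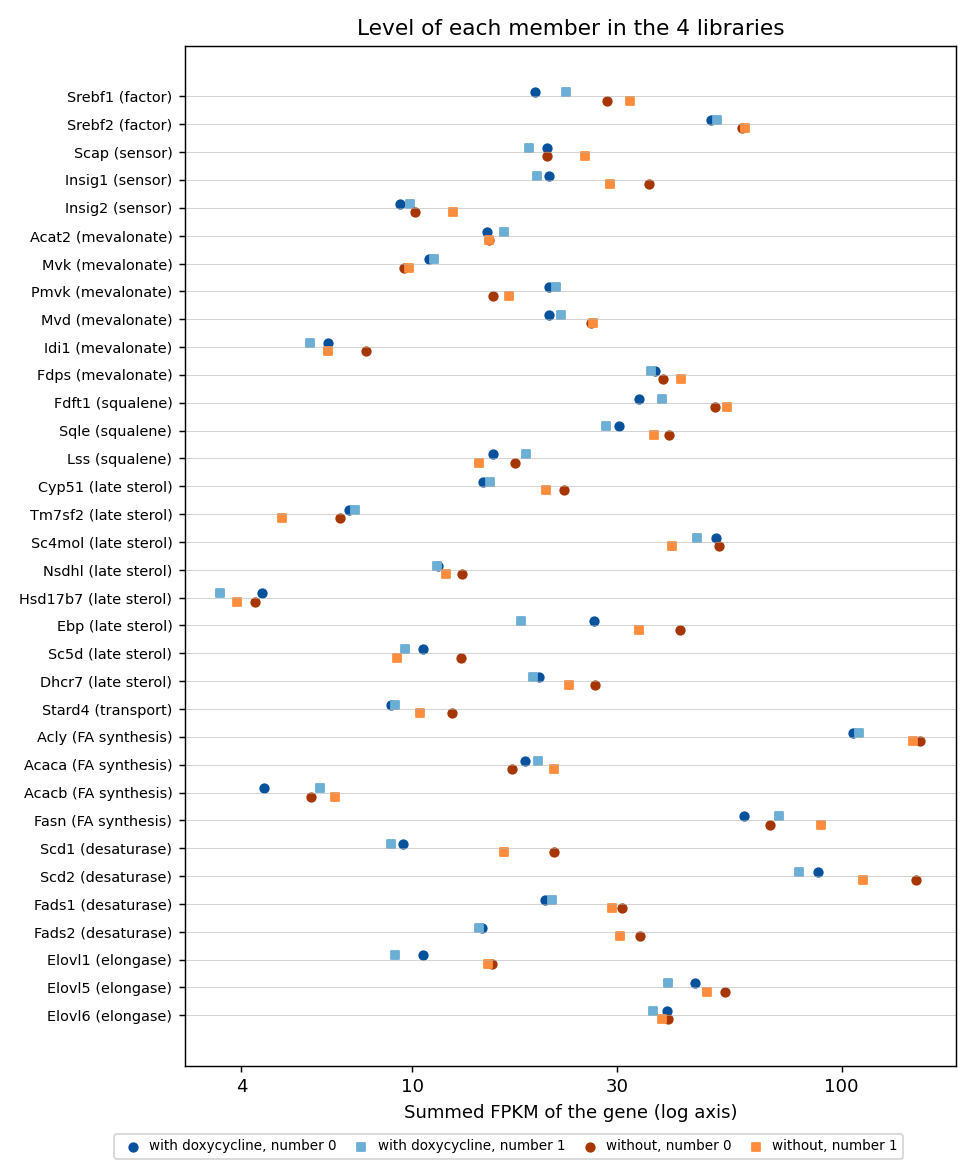
Summed FPKM of 34 of the 35 genes (rows, with the step of the pathway) in each of the 4 libraries, on a log axis; Hmgcs1, listed at 0, is not drawn. Points are single libraries: blue with doxycycline, orange to red without. For Fads2, the points without doxycycline (34.0 and 30.5 FPKM) stand clear of those with it (14.5 and 14.3 FPKM), while for Elovl6 all 4 lie between 36.4 and 39.3 FPKM.

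The number of calls rests on both libraries of a condition. It came to 6 higher without the doxycycline library numbered 0, to 8 without the one numbered 1, to 9 without the doxycycline-free library numbered 0 and to 13 without the one numbered 1. On the TPM scale 21 members were called higher, the call of Pmvk was lost, and the median change was 0.41, beside 0.10 over all genes. With the most abundant isoform of each gene alone, 6 were called higher, and with no minimum FPKM 9 were. In all 14 alternatives the 14 members kept their direction, and Insig1, Scd1 and Fads2 also kept their call.

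**Figure D2:**
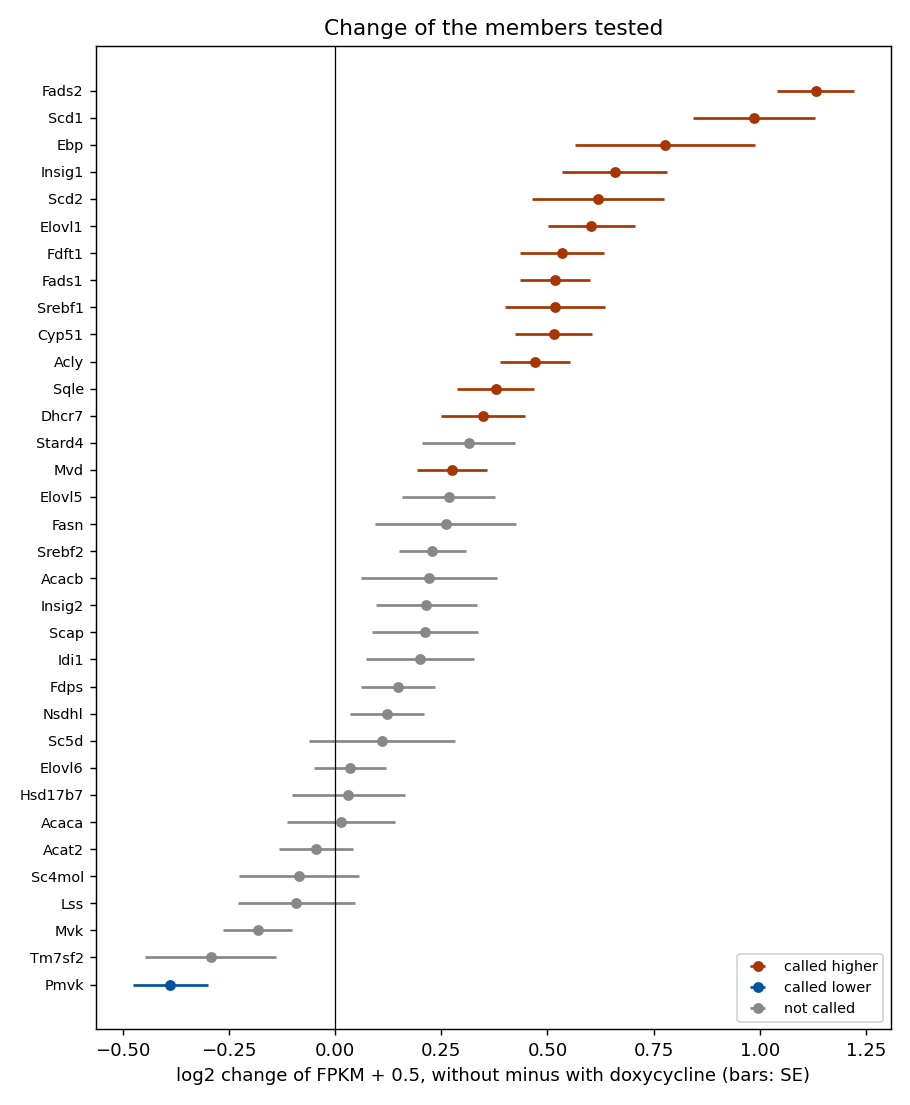
Log2 change of each of the 34 genes tested, without minus with doxycycline, ordered by size. Bars are the SE from limma and colours mark the call. The changes run from a fall of 0.39 (Pmvk) to a rise of 1.13 (Fads2).

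Both SREBP genes stood higher without doxycycline, and Srebf1 passed the test. Srebf1 (chromosome 11, 60012591 to 60036279, minus strand, build NCBIM37) encodes SREBP-1, best known for its action on fatty acid genes. It measured 19.3 and 22.8 FPKM with doxycycline and 28.5 and 32.2 FPKM without. The groups did not overlap, and the gene rose 1.44-fold (log2 change 0.52 ± 0.12, adjusted p = 0.0229). Srebf2 (chromosome 15, 81977636 to 82035806, plus strand) encodes SREBP-2, which acts mainly on sterol genes and was the more abundant of the pair. It measured 49.5 and 51.1 FPKM with doxycycline and 58.6 and 59.5 FPKM without. Its groups did not overlap either, but its change of 0.23 ± 0.08 was not called (adjusted p = 0.0695).

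Most of the rise of Srebf1 lay at 2 of its 14 start sites. Srebf1 had 22 isoforms, 6 of them with a mean of at least 1 FPKM, and the most abundant held 34.6% of the total. Isoforms starting at 60034106 (2 isoforms) averaged 7.25 ± 0.892 FPKM with doxycycline and 11.3 ± 3.10 FPKM without. Those starting at 60024001, inside the gene and downstream of that site (5 isoforms), averaged 4.57 ± 0.533 and 8.004 ± 0.620 FPKM. At both sites the libraries without doxycycline lay above those with it. Over the 14 sites the mean was higher without doxycycline at 10 and lower at 4. Isoforms overlap, so their separate levels are estimates, and these sites were not tested separately.

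Of the sterol-sensing regulators, Insig1 rose and the other two were not called. Insig1 (chromosome 5, 28397882 to 28405203, plus strand), which retains Scap in the endoplasmic reticulum and is itself an SREBP target, measured 20.8 and 19.5 FPKM with doxycycline and 35.7 and 28.9 FPKM without. Both libraries without the drug were higher (log2 change 0.66 ± 0.12, adjusted p = 0.0134). Its relative Insig2 measured 9.37 and 9.86 FPKM with doxycycline and 10.2 and 12.4 FPKM without, a change of 0.21 ± 0.12 that was not called. Insig2 was split over 23 isoforms, the most abundant holding 31.1%, and its change was -0.09 when that isoform was taken alone. Scap, the escort, measured 20.6 and 18.7 FPKM with doxycycline and 20.6 and 25.2 FPKM without. Its groups overlapped, with a change of 0.21 ± 0.13 and an adjusted p of 0.227.

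The early steps, from acetyl-CoA to farnesyl diphosphate, moved least as a group. Summed over 7 genes they averaged 112 ± 1.88 FPKM with doxycycline and 114 ± 3.04 FPKM without, and their median log2 change was 0.05. Mvd (chromosome 8, 124957504 to 124967290, minus strand), which makes isopentenyl diphosphate, measured 20.8 and 22.2 FPKM with doxycycline and 26.0 and 26.3 FPKM without. The groups were apart, and the gene rose by 0.28 ± 0.08 (adjusted p = 0.0474), a call kept in 5 of the 14 alternatives. Pmvk (chromosome 3, 89263040 to 89272935, plus strand), the kinase that acts 1 step before Mvd, moved the other way. It measured 20.8 and 21.6 FPKM with doxycycline and 15.4 and 16.8 FPKM without. Both libraries without the drug were lower, and the gene fell by 0.39 ± 0.09 (adjusted p = 0.0226). That call held in 8 of 14 alternatives and was lost, among others, on the TPM scale (adjusted p = 0.0549), without either doxycycline library (0.0837 and 0.126) and without the doxycycline-free library numbered 0 (0.0847).

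Mvk, the first kinase of the mevalonate branch, measured 10.9 and 11.2 FPKM with doxycycline and 9.58 and 9.83 FPKM without. Its groups were apart in the direction of Pmvk, with a change of -0.18 ± 0.08 that was not called. Fdps, which makes farnesyl diphosphate, measured 36.7 and 36.0 FPKM with doxycycline and 38.4 and 42.2 FPKM without, higher in both libraries and not called (0.15 ± 0.09). Idi1, the isopentenyl diphosphate isomerase, measured 6.38 and 5.78 FPKM with doxycycline and 7.81 and 6.35 FPKM without. Acat2, a thiolase that joins acetyl-CoA units, measured 14.9 and 16.3 FPKM with doxycycline and 15.1 and 15.1 FPKM without. The groups of Idi1 and Acat2 overlapped. Hmgcs1, the synthase that makes HMG-CoA, was listed at 0 in all 4 libraries and was not tested. Its 4 isoforms lie on 2 unplaced contigs of the assembly, and 0 of the 495 isoforms on such contigs had a value above 0.

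Squalene synthesis and its oxidation rose together. Fdft1 (chromosome 14, 63763990 to 63796716, minus strand), squalene synthase, measured 33.8 and 38.2 FPKM with doxycycline and 50.6 and 53.9 FPKM without. It rose 1.45-fold, with groups well apart (log2 change 0.53 ± 0.10, adjusted p = 0.0126). Sqle (chromosome 15, 59146583 to 59162747, plus strand), squalene epoxidase, measured 30.2 and 28.2 FPKM with doxycycline and 39.6 and 36.6 FPKM without. It rose by 0.38 ± 0.09 (adjusted p = 0.0256), again without overlap. Lss, which closes the rings to lanosterol, measured 15.4 and 18.4 FPKM with doxycycline and 17.4 and 14.3 FPKM without. The numbered libraries of Lss went opposite ways (0.17 and -0.35), and it was not called.

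Between lanosterol and cholesterol, 3 of 8 enzymes rose, beside 19.7% of all genes tested, and 5 were not called. Cyp51 (chromosome 5, 4080362 to 4104746, minus strand), the first enzyme after lanosterol, measured 14.6 and 15.2 FPKM with doxycycline and 22.6 and 20.5 FPKM without. The groups were apart (log2 change 0.51 ± 0.09, adjusted p = 0.0112). Ebp (chromosome X, 7762197 to 7770638, minus strand), a sterol isomerase, measured 26.5 and 17.9 FPKM with doxycycline and 42.1 and 33.7 FPKM without. It rose 1.71-fold (0.78 ± 0.21, adjusted p = 0.0371), with the widest SE of the 14. Dhcr7 (chromosome 7, 151009050 to 151034318, plus strand), which makes cholesterol from 7-dehydrocholesterol, measured 19.7 and 19.1 FPKM with doxycycline and 26.6 and 23.2 FPKM without. It rose by 0.35 ± 0.10 (adjusted p = 0.0412), a call kept in 6 of 14 alternatives.

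For Ebp the isoforms divided differently by library number, not by condition. Its isoform of 1505 nt measured 13.1 and 3.44 FPKM with doxycycline and 21.99 and 8.15 FPKM without. The isoform of 1743 nt showed the reverse order, with 3.31 and 12.8 FPKM with doxycycline and 5.22 and 18.8 FPKM without. Each was higher without the drug within either number. In the sum over isoforms the libraries numbered 0 remained above those numbered 1 in both conditions.

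The remaining late enzymes showed small or mixed differences. Sc4mol, the methylsterol oxidase now called Msmo1, was the most abundant of them, at 51.0 and 46.1 FPKM with doxycycline and 51.7 and 40.3 FPKM without, and its groups overlapped. Nsdhl, which acts with it in removing methyl groups, measured 11.5 and 11.4 FPKM with doxycycline and 13.0 and 11.97 FPKM without, above in both libraries and not called (0.12 ± 0.09). Hsd17b7, of the same complex, was the lowest of the 34 members tested, at 4.48 and 3.57 FPKM with doxycycline and 4.29 and 3.91 FPKM without. Sc5d, the sterol C5-desaturase, measured 10.6 and 9.61 FPKM with doxycycline and 13.0 and 9.21 FPKM without. The groups of Hsd17b7 and Sc5d overlapped. Tm7sf2, a sterol reductase whose reaction Lbr can also perform, measured 7.14 and 7.36 FPKM with doxycycline and 6.80 and 4.98 FPKM without. It was below in both libraries without the drug and not called (-0.29 ± 0.15). In the assembly Tm7sf2 shares a locus with neighbouring genes, so its level is uncertain. Stard4, a carrier of cholesterol between membranes, measured 8.93 and 9.11 FPKM with doxycycline and 12.4 and 10.4 FPKM without, apart but not called (adjusted p = 0.0712).

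**Figure D3:**
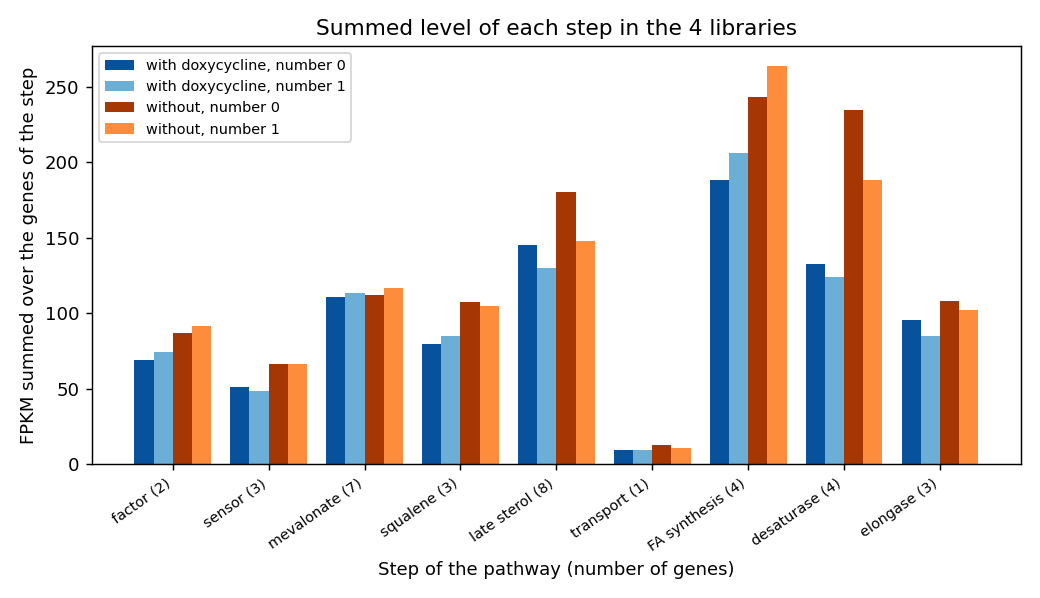
FPKM summed over the genes of each step (number of genes in brackets on the horizontal axis) in each of the 4 libraries, from 0. Bars are single libraries. The desaturases stand at 124 to 133 FPKM with doxycycline and 188 to 235 FPKM without, whereas the mevalonate steps lie between 111 and 117 FPKM in all 4.

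Among the fatty acid enzymes, 6 of 11 rose, beside 19.7% of all genes tested, and 5 were not called. All 11 changes were above 0, with a median of 0.47. The smallest, 0.01 for Acaca, stood at percentile 55.8 of the changes of all genes tested. Acly (chromosome 11, 100337663 to 100389314, minus strand), ATP citrate lyase, supplies cytosolic acetyl-CoA to both branches. It measured 106 and 109 FPKM with doxycycline and 153 and 147 FPKM without. Of all the members it had the highest level, at percentile 93.8 of the genes tested with doxycycline, and it rose 1.39-fold (log2 change 0.47 ± 0.08, adjusted p = 0.0112).

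The enzymes between acetyl-CoA and palmitate were not called. Acaca, the cytosolic acetyl-CoA carboxylase, measured 18.3 and 19.6 FPKM with doxycycline and 17.1 and 21.4 FPKM without. Acacb, its mitochondrial-membrane relative, measured 4.51 and 6.10 FPKM with doxycycline and 5.82 and 6.61 FPKM without. Fasn, fatty acid synthase, measured 59.2 and 71.3 FPKM with doxycycline and 68.0 and 89.3 FPKM without. All 3 overlapped between conditions, and Fasn had a change of 0.26 ± 0.17. On the TPM scale Fasn was called (adjusted p = 0.0460). For Fasn the library numbered 1 was the higher of its condition each time.

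All 4 desaturases rose, beside 19.7% of all genes tested. Scd1 (chromosome 19, 44468945 to 44482043, minus strand), a stearoyl-CoA desaturase that makes monounsaturated fatty acids, measured 9.51 and 8.90 FPKM with doxycycline and 21.4 and 16.4 FPKM without. It rose 2.05-fold (log2 change 0.99 ± 0.14, adjusted p = 0.00679). Scd2 (chromosome 19, 44367964 to 44381420, plus strand), the more abundant stearoyl-CoA desaturase, measured 88.3 and 79.7 FPKM with doxycycline and 149 and 112 FPKM without. It rose 1.55-fold (0.62 ± 0.16, adjusted p = 0.0296), and its 2 libraries without the drug were far from each other. Scd1 and Scd2 are close paralogs, so how reads that fit both were split is uncertain. Of the gap between those 2, an isoform of 4889 nt gave 14.8 and 0.353 FPKM, and the annotated isoform of 5451 nt gave 81.7 and 68.0 FPKM.

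Fads1 and Fads2 encode the fatty acid desaturases of polyunsaturated fatty acid synthesis and lie beside each other on chromosome 19. Fads2 (10137286 to 10176010, minus strand) measured 14.5 and 14.3 FPKM with doxycycline and 34.0 and 30.5 FPKM without. That was a rise of 2.24-fold, the largest of the members (log2 change 1.13 ± 0.09, adjusted p = 0.00215). Over all genes, 4.58% were called and higher by at least 1 on this scale, and Fads2 was the single member among them. Fads1 (10257378 to 10271360, plus strand) measured 20.4 and 21.1 FPKM with doxycycline and 30.9 and 29.1 FPKM without. It rose 1.44-fold (0.52 ± 0.08, adjusted p = 0.00861). With doxycycline Fads1 was the more abundant of the neighbours in both libraries, and without it Fads2 was.

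Of the 3 elongases, Elovl1 rose. Elovl1 (chromosome 4, 118100698 to 118105558, plus strand), which elongates very long saturated chains, measured 10.6 and 9.10 FPKM with doxycycline and 15.3 and 15.0 FPKM without (log2 change 0.60 ± 0.10, adjusted p = 0.0100). Elovl5, which elongates polyunsaturated chains, measured 45.5 and 39.3 FPKM with doxycycline and 53.5 and 48.6 FPKM without, apart and not called (adjusted p = 0.106). Elovl6, which extends palmitate, measured 39.2 and 36.4 FPKM with doxycycline and 39.3 and 38.2 FPKM without. Its change of 0.04 ± 0.08 was among the smallest of the members.

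**Figure D4:**
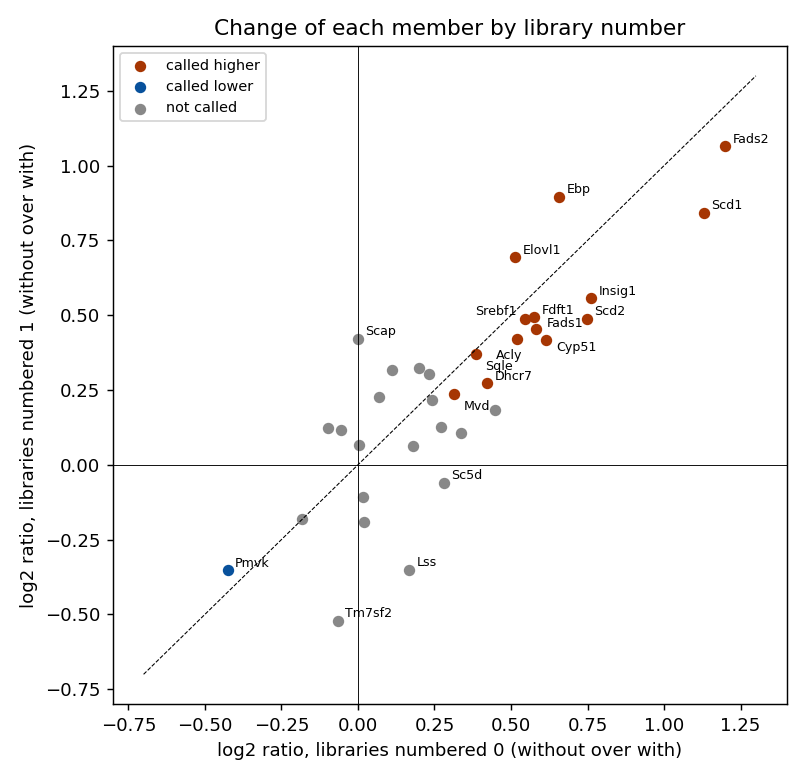
Log2 ratio of each of the 34 genes between the libraries numbered 1 (vertical axis) against that between the libraries numbered 0 (horizontal axis); the dashed line marks equal ratios. The 14 genes called higher lie in the upper right quadrant, from Mvd (0.31 and 0.24) to Fads2 (1.20 and 1.06). Their groups did not overlap, so both of their ratios had to be positive. Lss (0.17 and -0.35) and Sc5d (0.28 and -0.06) are among those whose sign differed between numbers.

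The difference was present within each pair of equal numbers, which come from the same libraries as the calls and give no separate support. The median log2 ratio of the 34 genes was 0.28 between the libraries numbered 0 and 0.25 between those numbered 1, beside -0.06 and -0.04 over all genes tested. Sterol enzymes had a smaller median (0.12 over 17 genes tested, 6 called higher and 1 lower) than fatty acid enzymes (0.47 over 11). The shares of all genes tested were 19.7% called higher and 21.3% lower. The difference between the branches was not tested.

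Other genes of the pathway were read from lists that do not hold the members. Of 9 further genes of SREBP processing and turnover, 2 rose and 7 were not called, and their median change was 0.16. Over all genes tested, 19.7% were called higher and 21.3% lower, so that 2 of 9 is near the share of all genes. Erlin1, part of an endoplasmic reticulum complex that limits SREBP activation, measured 13.1 and 12.9 FPKM with doxycycline and 25.0 and 24.5 FPKM without (log2 change 0.90 ± 0.08, adjusted p = 0.0024). Fbxw7, which marks nuclear SREBPs for degradation, measured 9.63 and 9.52 FPKM with doxycycline and 11.3 and 12.5 FPKM without. Its rise of 0.30 ± 0.09 was just inside the threshold (adjusted p = 0.0488) and was lost without any 1 of the 4 libraries, with adjusted p between 0.0705 and 0.198.

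Of 17 other genes of sterol and isoprenoid metabolism, 4 rose, 6 fell and 7 were not called, with a median of -0.14. The shares over all genes tested were 19.7% higher and 21.3% lower. Por, the electron donor of Cyp51 and Sqle, rose by 0.60 ± 0.10, from 13.96 and 15.4 FPKM to 21.3 and 23.6 FPKM. Fntb and Lbr, named here after their values were seen, also rose. Coq2, which attaches the isoprenoid tail of ubiquinone, fell by 0.87 ± 0.09, from 15.9 and 14.6 FPKM to 8.07 and 8.17 FPKM. Pdss1 and Pdss2, which build that tail, also fell, by 0.44 and 0.55.

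Genes of sterol uptake, transport and efflux rose more often than they fell. Of 27 genes 22 were tested, 12 rose, 2 fell (Stard5 and Vldlr) and 8 were not called, with a median of 0.34. Among all genes tested, 19.7% were called higher and 21.3% lower. Abca1, which exports cholesterol to lipoproteins, measured 4.43 and 4.12 FPKM with doxycycline and 16.9 and 16.1 FPKM without. It rose 3.86-fold (log2 change 1.83 ± 0.09, adjusted p = 0.0014). Abcg1, a second exporter, rose 3.48-fold, from 3.62 and 4.15 FPKM to 13.9 and 13.1 FPKM. Mylip, a ubiquitin ligase that removes lipoprotein receptors, rose 3.67-fold, from 1.74 and 1.78 FPKM to 6.98 and 5.91 FPKM. In all 3 genes the libraries without doxycycline stood far above those with it.

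The other fatty acid genes went both ways, at shares near those of all genes tested (19.7% higher and 21.3% lower). Of 33 genes for supply and elongation 29 were tested, 7 rose, 7 fell and 15 were not called, with a median of 0.02. Elovl4, an elongase of very long chains, fell from 3.22 and 3.27 FPKM to 0.572 and 0.533 FPKM (log2 change -1.83 ± 0.12, adjusted p = 0.0017). Mid1ip1, which promotes assembly of acetyl-CoA carboxylase, fell from 9.48 and 8.57 FPKM to 2.61 and 1.90 FPKM. Its relative Thrsp rose from 0.409 and 0.647 FPKM to 2.27 and 2.41 FPKM. The pair of related regulators thus moved in opposite directions.

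Of 20 fatty acid oxidation genes tested, 9 rose, 1 fell and 10 were not called, with a median of 0.29. For all genes tested the shares were 19.7% higher and 21.3% lower. Cpt1c rose 2.06-fold, from 10.0 and 9.69 FPKM to 19.6 and 20.9 FPKM. Its relative Cpt1b, the muscle form of the carnitine palmitoyltransferase of mitochondria, fell from 3.05 and 3.12 FPKM to 1.43 and 1.24 FPKM. Genes that break fatty acids down and genes that make them were thus both among those that rose.

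Promoters of the members were read from RefSeq (assembly GRCm38.p6), as 250 bases before to 50 after each annotated start, and searched on both strands. They were found for 28 of the 35 members and for 9106 of the genes tested. The 7 members without one were Sqle, Fdft1, Scd1, Scd2 and Fads1, all called higher, and Fdps and Stard4, not called. The letters CCAATCA, an NF-Y box with its preferred flank, occurred in 13 of the 28 (46.4%), beside 11.9% of the genes tested and 7.82% of all 32851 promoters in the table. Of the members called higher 5 of 9 held it, and of the others, Hmgcs1 included, 8 of 19. The shorter CCAAT, which CCAATCA contains, occurred in 23 of the 28 (82.1%), beside 43.2% of the genes tested and 41.1% of the 27025 genes. The E-box CACGTG occurred in 6 of the 28 (21.4%), beside 12.2% of the genes tested and 8.09% of the 27025 genes. A sterol element written TCACNCCAC occurred in Hmgcs1 alone, beside 1.42% of the genes tested and 1.44% of the 27025 genes. A match is a description of these letters, not evidence of binding.

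The 100 bases before the start held CCAATCA in 12 members, and 8 of these are shown as examples of where the box lies: all 5 that rose and 3 of the 7 that were not called. The sequences run 5′ to 3′ on the strand of the gene, and capitals mark CCAATCA or its reverse complement TGATTGG.
Srebf1 (chr11:60210472-60210571, minus strand): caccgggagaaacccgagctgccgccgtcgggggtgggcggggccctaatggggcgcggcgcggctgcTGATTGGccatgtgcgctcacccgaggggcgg
Mvd (chr8:122443423-122443522, minus strand): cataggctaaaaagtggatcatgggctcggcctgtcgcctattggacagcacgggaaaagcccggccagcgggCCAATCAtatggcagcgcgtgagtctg
Ebp (chrX:8193513-8193612, minus strand): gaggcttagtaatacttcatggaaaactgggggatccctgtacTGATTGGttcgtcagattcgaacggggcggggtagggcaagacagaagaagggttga
Dhcr7 (chr7:143830114-143830213, plus strand): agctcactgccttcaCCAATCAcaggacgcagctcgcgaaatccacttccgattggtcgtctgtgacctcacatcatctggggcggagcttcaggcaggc
Elovl1 (chr4:118427993-118428092, plus strand): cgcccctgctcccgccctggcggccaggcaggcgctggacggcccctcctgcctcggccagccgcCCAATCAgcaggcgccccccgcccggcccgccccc
Idi1 (chr13:8885506-8885605, plus strand): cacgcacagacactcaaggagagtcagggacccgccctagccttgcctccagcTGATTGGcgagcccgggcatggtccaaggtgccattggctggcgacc
Lss (chr10:76531505-76531604, plus strand): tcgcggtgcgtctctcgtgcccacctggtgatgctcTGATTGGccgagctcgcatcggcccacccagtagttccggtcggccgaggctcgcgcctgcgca
Tm7sf2 (chr19:6067851-6067950, minus strand): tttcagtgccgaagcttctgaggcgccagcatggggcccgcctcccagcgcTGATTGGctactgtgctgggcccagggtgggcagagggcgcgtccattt

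Srebf1, Mvd, Ebp, Dhcr7 and Elovl1 are the genes among these that rose, while Idi1, Lss and Tm7sf2 were not called. Counted from the start, the first base of the box lay between -85 and -27 in the 5 that rose. In the 7 that were not called (Idi1, Lss and Tm7sf2, with Mvk, Sc4mol, Hsd17b7 and Sc5d, which are not shown) it lay between -96 and -14, a wider range. It was read on the same strand in Mvd, Dhcr7 and Elovl1 and on the opposite strand in Srebf1, Ebp, Idi1, Lss and Tm7sf2. For Srebf1 the sequence is the more downstream of its 2 promoters in the table.

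MicroRNA seeds were compared with the members' 3′ untranslated regions, since Ago2 is the protein the drug controls in this line. Shown are mature sequences from RefSeq (GRCm38.p6) of microRNAs that are abundant in mouse embryonic stem cells, with miR-33, which lies in an intron of Srebf2 and is known to act on sterol export. Capitals mark the seed, bases 2 to 8.
mmu-miR-291a-3p: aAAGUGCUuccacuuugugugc
mmu-miR-294-3p: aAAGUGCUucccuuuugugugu
mmu-miR-302b-3p: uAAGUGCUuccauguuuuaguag
mmu-miR-17-5p: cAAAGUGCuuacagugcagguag
mmu-miR-20a-5p: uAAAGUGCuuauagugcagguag
mmu-miR-33-5p: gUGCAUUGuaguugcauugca

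miR-291a-3p, miR-294-3p and miR-302b-3p share the seed AAGUGCU, and miR-17-5p and miR-20a-5p share AAAGUGC. Sites of 7 or 8 bases were searched in the longest annotated region of each gene in GENCODE mouse release 21, which gave a region for all 35 members and for 11278 of the genes tested. For AAGUGCU, 5 of 35 members (14.3%) had a site, beside 21.8% of the genes tested. Of the members that rose 1 of 14 had one, Fads2, and of the rest 4 of 21. For AAAGUGC, 4 of 35 (11.4%) had a site, beside 22.6% of the genes tested, 0 of the 14 that rose among them. For UGCAUUG of miR-33-5p, 4 of 35 (11.4%) had a site, beside 16.2% of the genes tested, with Srebf1 and Acly of the 14. No seed was therefore held by a larger share of the members than of all genes tested.

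The sites below are printed with the matched bases in capitals, for the member that rose most and for members with the longest matches. For the exporters Abca1 and Abcg1, only a longest UGCAUUG match is printed.
Fads2, AAGUGCU seed: caatctagccAGCACTTggct
Hsd17b7, AAGUGCU seed: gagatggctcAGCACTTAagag
Elovl6, AAAGUGC seed: tgcttccaaaGCACTTTAgtct
Nsdhl, UGCAUUG seed: agtgatggtgCAATGCAAtggt
Abca1, UGCAUUG seed: tgacactattCAATGCAAtgca
Abcg1, UGCAUUG seed: taacgcaacgCAATGCAAcgca

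The site of Fads2 begins at base 875 of a region of 1498 nt and matches 7 bases, and Fads2 was the largest rise of the members. Hsd17b7, Elovl6 and Nsdhl each hold a match of 8 bases, and none of the 3 was called (log2 changes 0.03, 0.04 and 0.12). Abca1 holds 3 miR-33 sites, at bases 135, 140 and 150 of its region, and those at 135 and 140 overlap. Abcg1 holds 3, at bases 717, 727 and 3081. Abca1 also holds a match of 8 bases to the AAAGUGC seed, at base 2931, which is not printed. It overlaps a match of 7 bases to the AAGUGCU seed, at base 2930. Srebf2, whose intron carries miR-33, was not called, and the level of the microRNA was not analysed here. A match says only that the letters are present.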

How the data were processed

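PolyA RNA of TT-FHAgo2 cells was sequenced in strand-specific libraries, per the labels' protocols. The authors deposited FPKM per isoform, made with TopHat2 2.0.9 and Cufflinks 2.1.1 (per the submitters' processing notes, which name build NCBIM37) over a Cuffmerge annotation that they also deposited. The library total behind the scaling is not given in the sources used here. Each table was deposited as 2 identical copies, and 0 columns of values went unused. In the table, 25 gene symbols (236 isoforms) turned into dates were restored from the table of the doxycycline libraries alone.

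The table holds 181027 isoforms, of which 31251 lack a gene name; 8207 with a name were left out. The 141569 used were at least 200 nt long and of class = (matching a reference transcript) or j (sharing a junction). Shorter isoforms held between 98.9% and 99.6% of a library's summed FPKM. FPKM was summed per gene and taken to log2(FPKM + 0.5), and limma 3.58.1 in R 4.3.3 (prior variance with a trend; residual degrees of freedom 2, prior 3.21) tested every gene whose mean reached 1 FPKM under at least 1 treatment, two-sided and unpaired, with Benjamini-Hochberg adjustment over 13207 genes at 0.05. The procedure was tested on simulated data of 2 against 2 libraries, with 200 of 13207 genes changed, far fewer than were called here. It called 1% of the log2 changes of 0.5 in size and 52% of those of 1. A gene that was not called may therefore still have changed. Python 3.11.15, numpy 2.4.6, pandas 2.3.3 and matplotlib 3.10.9 did the rest.

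The members, pathway lists and marker lists were chosen with earlier results of these data known. Named were all 35 members, the 3 tested genes of each other pathway list with the largest absolute change, Ago2, and Pou5f1, Nanog and Sox2. Some genes that this rule names are not reported here. Other named genes were picked after their values were seen, where a count was small. Promoter and microRNA sequences came from RefSeq and 3′ regions from GENCODE, for names and letters only; their coordinates are on GRCm38.p6 and were not joined to those of the files. Alternatives changed the pseudocount, the minimum, the scaling, the isoforms used, the limma prior, a block on library number, and each library in turn.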

Additional observations from a re-analysis of the deposited data

How the results depend on the processing

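Pseudocounts of 0.1 and 1 left all 34 calls of the members as they were. The count of members called higher, 14, came to 9 with no minimum FPKM, to 6 with the most abundant isoform alone, and to between 6 and 13 without 1 library. The count called lower, 1, came to 0 on the TPM scale, with the most abundant isoform alone and with class = alone, to 2 with the replicate block, and to between 0 and 1 without 1 library. Genes called over all genes, 5417, came to 2053 with the most abundant isoform alone, 2590 with class = alone, 8157 with the replicate block, and between 3229 and 4416 without 1 library. With 1 library left out, the lone library of its condition is assumed to vary like the others. The members' median change, 0.24, was 0.26 at a minimum of 5 FPKM, 0.19 with the medians set equal, 0.41 on the TPM scale, and between 0.25 and 0.30 without 1 library. TPM moved the median of all genes from -0.06 to 0.10. Setting the medians equal moved it to -0.11, since that setting equates the median level, not the median change. The members' median lay 0.30 above the median of all genes in the fit reported, on the TPM scale and with the medians set equal. Setting the medians equal shifts all genes of a condition by the same amount, and TPM does nearly so. This gap could therefore hardly change, and its constancy is no sign of stability. The cause of these shifts was not tested, apart from the fewer isoforms or libraries that some alternatives use.

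Of the 14 members called higher, the call was kept in 14 of 14 alternatives for Insig1, Scd1 and Fads2, in 13 for Fdft1, Fads1 and Elovl1, in 12 for Cyp51, in 11 for Acly and Scd2, in 10 for Sqle and Ebp, in 9 for Srebf1, in 6 for Dhcr7 and in 5 for Mvd. Signs turned only in members that were not called in the fit reported. With the most abundant isoform alone the log2 change was -0.086 for Insig2, -0.40 for Hsd17b7, -0.075 for Sc5d and -0.15 for Acaca. On the TPM scale it was 0.11 for Acat2, 0.066 for Lss and 0.075 for Sc4mol. With class = alone it was 0.097 for Sc4mol, -0.042 for Hsd17b7 and -0.076 for Acaca. With the medians set equal it was -0.027 for Hsd17b7, -0.044 for Acaca and -0.022 for Elovl6. Without 1 library it ran from -0.11 to 0.018 for Acat2, -0.23 to 0.043 for Lss, -0.26 to 0.093 for Sc4mol, -0.11 to 0.18 for Hsd17b7, -0.13 to 0.35 for Sc5d, -0.14 to 0.17 for Acaca and -0.017 to 0.088 for Elovl6.

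The replicate block used the library numbers, which the labels do not tie to a shared culture or day. Same-numbered libraries deviated together (r = 0.46 across 13207 genes, which are not independent replicates), from 2 pairs. With the block, 18 members were called higher and 2 lower, adding Srebf2, Stard4, Fasn and Elovl5 (adjusted p = 0.0120, 0.0309, 0.0132 and 0.0092) and, among those lower, Mvk (0.0456). TPM added Srebf2, Scap, Insig2, Fdps, Stard4, Fasn and Elovl5. Depth is known for the libraries numbered 1 only, so counting error in the others could not be given.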
